A study of Homo sapiens with 12 samples.

Results

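The IL6 family cytokines and the proteins that carry their signal were followed in MDA-MB-231 cells, an established human line of triple-negative breast cancer. The set held 10 genes of 11963 measured: the cytokine genes IL6, IL11 and LIF, the receptor genes IL6ST, IL6R, LIFR and OSMR, the kinase gene JAK1, the transcription factor gene STAT3 and the inhibitor gene SOCS3. They were chosen by name as a pathway, and IL6 and IL11 were noted in that choice for their rise with digoxin. Values of digoxin against DMSO, and of the same digoxin arrays against the other compounds, are therefore given for these genes as a description with no test.

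Cells grown in DMEM with serum and antibiotics received the vehicle DMSO, rotenone, digoxin or manassantin for 24 h, and RNA was hybridized to 12 Affymetrix GeneChip arrays, 3 in each of 4 groups. Rotenone inhibits respiratory complex I, digoxin is a foxglove glycoside that inhibits the sodium-potassium ATPase, and manassantin is a plant lignan named manassantin A in the study's description. That description names digitoxin where the sample titles name digoxin, so which glycoside was used is not settled; the titles' name is kept here. The labels give no dose. They do not say whether replicates were separate cultures, so each p-value measures only the spread between these arrays, which may be technical.

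Cytokines of this family signal through gp130, the shared receptor subunit encoded by IL6ST. Each cytokine first binds its own receptor chain or recruits a partner chain (IL6R for IL-6, LIFR for LIF, OSMR for oncostatin M), after which JAK kinases attached to gp130 phosphorylate STAT3. STAT3 enters the nucleus and switches on target genes, among them SOCS3, whose protein binds gp130 and JAK and ends the signal. Mesenchymal, hormone receptor negative breast cancer lines are known to secrete IL-6, and IL-11 and LIF have been tied to spread of breast cancer to bone.

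All values are log2 expression of a probe set, a group of probes summarised to 1 value per array. Where a gene had several probe sets, the brightest on average stands for it, and the others are given where they bear on a result. Levels of different probe sets are not comparable, so only values of the same probe set are set against each other. Genes with a mean below 5.75, the 40th percentile over genes, are called dim, and IL6R and LIFR were dim. The 8 genes taken as markers of the cell line, among them VIM and CD44, had DMSO means from 10.12 to 13.24, while of 5 genes taken as low in the line PGR and CDH1 were dim and ESR1 (6.08), ERBB2 (7.96) and EPCAM (8.03) were not. All 5 measured leukocyte and all 6 fibroblast and endothelial markers were dim. The mean of the 8 line markers ran from 12.01 to 12.03 on the DMSO arrays and from 11.68 to 11.74 on the digoxin arrays. Array medians were lower with digoxin than with DMSO by 0.087, so digoxin differences of that size depend on the scale. The 18S rRNA control differed from DMSO by -0.388 with rotenone, -0.314 with digoxin and -0.565 with manassantin, with an SD of 0.315 among DMSO arrays.

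The promoters of IL6 and IL11 are shown because both genes were noted in the choice for their rise with digoxin. That shared rise is therefore no result of its own. RefSeq (GRCh38.p14) windows were found for 9 of the 10 genes, and none was found for LIF. The 250 bases before the start are printed 5′ to 3′ on the gene's own strand. IL6 lies on the plus strand at chr7:22726950-22727199, and IL11 on the minus strand at chr19:55370464-55370713. Capitals mark matches, on either strand, to GGG, any 2 bases and TTTCC (NF-kB), or to the letters TGANTCA (AP-1), TGACGTCA (CRE), TTGCNCAA (C/EBP) or TTCNNNGAA (STAT).
IL6: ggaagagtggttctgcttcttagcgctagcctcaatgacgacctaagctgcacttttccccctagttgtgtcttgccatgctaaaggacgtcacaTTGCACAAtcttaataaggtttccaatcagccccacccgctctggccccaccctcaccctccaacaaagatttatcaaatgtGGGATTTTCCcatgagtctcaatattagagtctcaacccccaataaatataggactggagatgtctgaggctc
IL11: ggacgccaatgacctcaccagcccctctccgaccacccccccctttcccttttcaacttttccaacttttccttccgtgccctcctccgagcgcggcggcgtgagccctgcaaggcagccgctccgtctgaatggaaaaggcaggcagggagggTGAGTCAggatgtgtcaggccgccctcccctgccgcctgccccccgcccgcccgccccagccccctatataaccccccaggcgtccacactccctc

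The IL6 window held the NF-kB letters 73 to 64 bases before the start and the C/EBP letters at 155 to 148. The IL11 window held the AP-1 letters 96 to 90 bases before the start. None of these 5 motifs was in both windows. Of all 35116 RefSeq windows of this length, 1.73% held the NF-kB letters, 2.27% the C/EBP letters, 6.57% the AP-1 letters, 1.65% the CRE letters and 6.57% the STAT letters. Among the other genes of the set, matches were found in LIFR windows alone, with the STAT letters in the first and second of its 3 windows. These are matches of letters, and binding was not measured.

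IL6 and IL11 had the widest ranges over the arrays, 3.39 and 3.62. IL6 read 6.16, 6.02 and 6.15 with DMSO, 7.02, 6.94 and 6.92 with rotenone, 9.22, 9.41 and 9.31 with digoxin, and 6.25, 6.47 and 6.08 with manassantin. The digoxin arrays stood above all others, the rotenone arrays came next, and the manassantin and DMSO arrays overlapped. IL6 rose with rotenone by 0.85 ± 0.088 (SE, n = 3 arrays per group) over DMSO, or 1.8-fold (limma adjusted p = 0.000232). This was the 13th largest difference upward of 11963 genes in that comparison. With manassantin IL6 differed from DMSO by 0.15 ± 0.088 (limma adjusted p = 0.434), with a 95% interval from -0.038 to 0.35. IL6 was lower with manassantin than with rotenone by a log2 difference of -0.69 ± 0.088 (limma adjusted p = 0.000894).

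With digoxin the IL6 difference from DMSO was 3.20 ± 0.088, or 9.22-fold, the 4th largest upward of all genes, given as a description because it took part in the choice. IL11 ranked 3rd. Just above this pair were EGR1 (3.81) and CXCL8 (3.69), and just below were IL24 (3.14) and ABL2 (3.01). Between digoxin and rotenone the IL6 difference was 2.36.

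IL11 encodes a cytokine that acts through its own receptor chain and gp130. Its main probe set read 7.71, 8.14 and 8.17 with DMSO, 8.26, 8.51 and 8.31 with rotenone, 11.07, 11.25 and 11.33 with digoxin, and 7.71, 8.23 and 8.11 with manassantin. The digoxin arrays were far above the rest, and the rotenone arrays lay just above the highest DMSO array. DMSO replicate 1 and manassantin replicate 1 were the lowest, at the same value. The digoxin difference from DMSO was 3.21 ± 0.15, or 9.25-fold, and the gene's other probe set gave 3.36 ± 0.12. With rotenone the difference was 0.35 ± 0.15 (limma adjusted p = 0.191), and with manassantin 0.011 ± 0.15 (limma adjusted p = 0.98), with a 95% interval from -0.31 to 0.33.

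Rotenone and manassantin arrays of the same replicate number deviated together, with correlations of 0.256, 0.362 and 0.107 across genes. With the replicate number as a block, the IL11 difference between manassantin and rotenone, -0.34, had a limma adjusted p = 0.0287, against 0.185 without it. Over the 16 alternatives of that result the adjusted p ran from 0.0287 to 0.506.

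LIF encodes leukaemia inhibitory factor, which pairs LIFR with gp130. It read 7.17, 7.12 and 7.01 with DMSO, 7.39, 7.36 and 7.39 with rotenone, 8.06, 8.12 and 8.06 with digoxin, and 7.34, 7.36 and 7.21 with manassantin. Every treated array was above every DMSO array, and the digoxin arrays were the highest. LIF rose with rotenone by 0.28 ± 0.056 (limma adjusted p = 0.0129), a call lost without DMSO replicate 3 (0.23, adjusted p = 0.0565) and with the 18S control as a covariate (0.22, adjusted p = 0.0653). Over the 16 alternatives that adjusted p ran from 0.00308 to 0.0653. With manassantin LIF stood at 0.20 ± 0.056 above DMSO (limma adjusted p = 0.106), and with digoxin at 0.98 ± 0.056, or 1.97-fold. Manassantin and rotenone did not differ in LIF beyond the threshold, with a difference of -0.077 (95% interval -0.20 to 0.046).

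**Figure D1:**
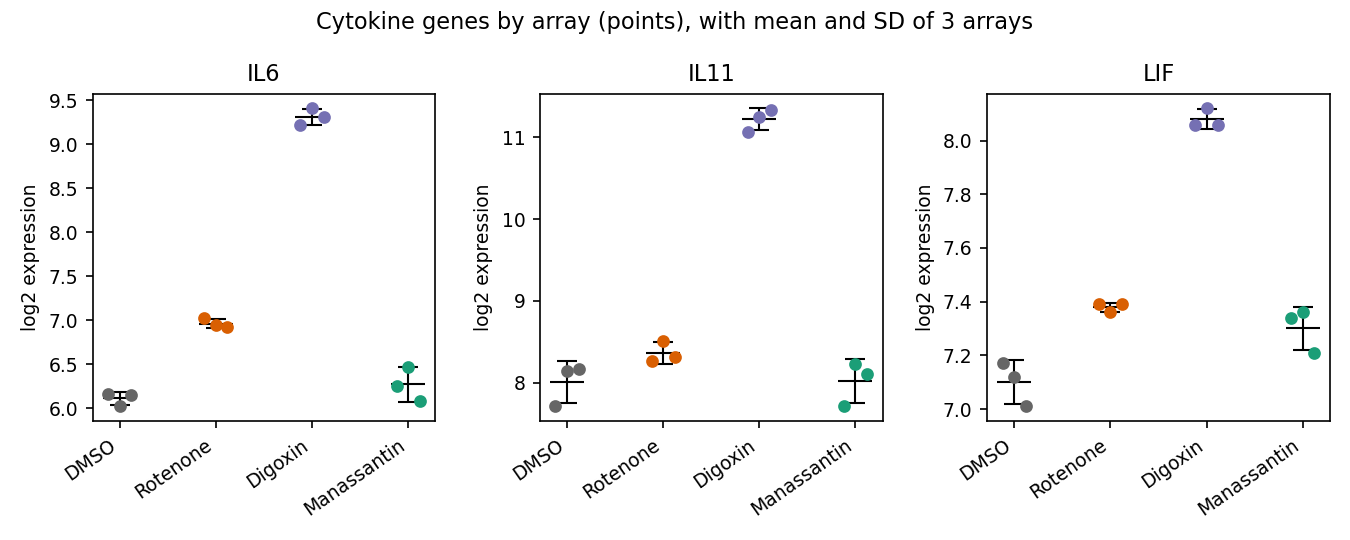
Log2 expression of IL6, IL11 and LIF on each of the 12 arrays (points) by group, with the mean and SD of 3 arrays; each panel has its own vertical scale. The digoxin arrays lie above all others in each panel, and for IL6 the rotenone arrays (6.92 to 7.02) lie above the DMSO arrays (6.02 to 6.16).

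Genes whose treated arrays followed IL6 most closely were found by the root mean square difference over the 9 treated arrays, each gene taken relative to its DMSO mean. The nearest were ABL2, a tyrosine kinase gene, at 0.197, the chemokine gene CXCL8 at 0.321, IL11 at 0.34, IL24 at 0.454 and the chemokine gene CXCL2 at 0.459. For IL11 the nearest were ABL2 at 0.273, IL6 at 0.34, the hyaluronan synthase gene HAS2 at 0.362, CXCL8 at 0.376 and PPP1R15A at 0.488. ABL2 differed from DMSO by 3.01 with digoxin, 0.75 with rotenone and 0.01 with manassantin. This measure is dominated by the digoxin arrays and says how alike the sizes of change were. IL6 and IL11 were both noted in the choice for their rise on those arrays, so nothing is read from their nearness to each other.

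No receptor gene differed between groups as much as IL6 or IL11 on its main probe set. IL6ST read 11.06, 11.15 and 11.14 with DMSO, 11.11, 11.05 and 11.19 with rotenone, 11.13, 11.00 and 11.06 with digoxin, and 11.24, 11.05 and 11.25 with manassantin. All 4 groups overlapped. Differences from DMSO were 0.0012 ± 0.065 with rotenone (limma adjusted p = 0.996), 0.064 ± 0.065 with manassantin (adjusted p = 0.69) and -0.054 ± 0.065 with digoxin.

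The 5 probe sets of IL6ST gave different values. Probe set 212196_at read 8.35, 8.46 and 8.42 with DMSO, 8.55, 8.58 and 8.70 with rotenone, 9.48, 9.60 and 9.53 with digoxin, and 8.34, 8.18 and 8.51 with manassantin. Its digoxin arrays stood 1.13 ± 0.078 above DMSO, a 2.18-fold difference that the main probe set did not show. The other 3 probe sets stood at 0.26, 0.29 and 0.46 with digoxin. For rotenone, 212196_at differed from DMSO by 0.20 (adjusted p = 0.189 over all probe sets with limma), 211000_s_at by -0.24 and 204863_s_at by -0.25. For manassantin the same probe sets stood at -0.066, -0.37 and -0.36 (limma adjusted p = 0.766, 0.294 and 0.272 over all probe sets), against 0.064 on the main one. Which transcripts each probe set detects was not tested, so a direction for gp130 mRNA with digoxin depends on the probe set: the mean of all 5 gave 0.41.

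**Figure D2:**
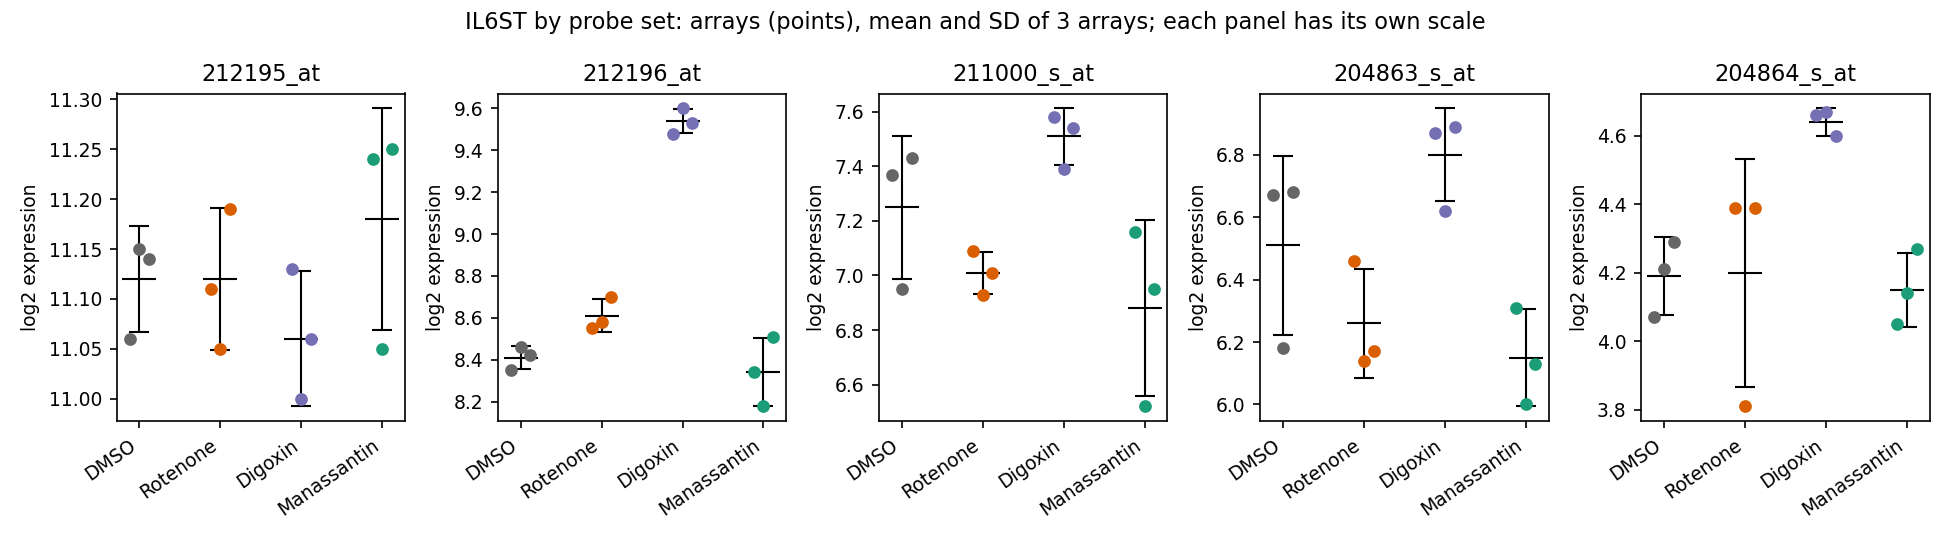
Log2 expression of each IL6ST probe set on the 12 arrays (points) by group, with the mean and SD of 3 arrays; each panel has its own vertical scale. In 212196_at the digoxin arrays (9.48 to 9.60) lie above all others, while in 212195_at the groups overlap.

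IL6R, the binding chain for IL-6, was dim. It read 3.77, 3.62 and 3.84 with DMSO, 3.93, 3.88 and 3.86 with rotenone, 4.25, 4.06 and 4.51 with digoxin, and 3.73, 3.64 and 3.72 with manassantin. The digoxin arrays were highest, 0.53 ± 0.096 above DMSO, but the gene's other probe set, also dim, gave 0.034. Rotenone (0.15, limma adjusted p = 0.427) and manassantin (-0.046, adjusted p = 0.866) did not pass.

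LIFR, the receptor chain for LIF, was dim as well. It read 5.33, 5.26 and 5.24 with DMSO, 5.52, 5.33 and 5.33 with rotenone, 5.07, 5.14 and 5.25 with digoxin, and 5.18, 4.82 and 5.03 with manassantin. The manassantin arrays were all below the DMSO and the rotenone arrays. LIFR fell with manassantin against rotenone by 0.39 ± 0.088 on the log2 scale, from a mean of 5.40 to 5.01 (limma adjusted p = 0.0216). The call was lost without manassantin replicate 2 (adjusted p = 0.0542), without manassantin replicate 3 (0.0554), without rotenone replicate 1 (0.0777) and when limma was given just the rotenone and manassantin arrays (0.0694), with adjusted p from 0.00759 to 0.0777 over 15 alternatives. Against DMSO the manassantin difference was -0.27 ± 0.088 (limma adjusted p = 0.164).

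OSMR, the partner chain for oncostatin M, spread widely between arrays of a group. It read 6.70, 6.45 and 6.50 with DMSO, 6.57, 5.80 and 6.42 with rotenone, 6.19, 5.69 and 5.64 with digoxin, and 6.81, 6.22 and 6.30 with manassantin. Replicate 2 was the lowest array of the DMSO, rotenone and manassantin groups. The digoxin arrays were below all DMSO arrays, by -0.71 ± 0.21 in the mean. Rotenone stood at -0.28 ± 0.21 (limma adjusted p = 0.508) and manassantin at -0.10 ± 0.21 (adjusted p = 0.859).

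Among the signalling genes, JAK1, the main kinase bound to gp130, read 9.78, 9.88 and 9.81 with DMSO, 9.79, 9.77 and 9.81 with rotenone, 9.31, 9.30 and 9.25 with digoxin, and 9.86, 9.81 and 9.85 with manassantin. The digoxin arrays were separate and low, at -0.54 ± 0.045 from DMSO, while the other 3 groups overlapped. The 95% intervals of the differences from DMSO were -0.13 to 0.064 for rotenone and -0.085 to 0.11 for manassantin.

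STAT3 read 9.23, 9.30 and 9.21 with DMSO, 9.43, 9.38 and 9.45 with rotenone, 9.81, 9.90 and 9.88 with digoxin, and 9.21, 9.07 and 9.03 with manassantin. From high to low the groups ran digoxin, rotenone, DMSO and manassantin, and the last pair touched. STAT3 was lower with manassantin than with rotenone by a log2 difference of -0.32 ± 0.056 (limma adjusted p = 0.00604), and its other probe set gave -0.37 ± 0.067 (adjusted p = 0.00825 over all probe sets). Against DMSO neither compound passed, rotenone at 0.18 ± 0.056 (limma adjusted p = 0.0881) and manassantin at -0.14 ± 0.056 (adjusted p = 0.236). For rotenone STAT3 passed in 3 of 16 alternatives, without dim genes (adjusted p = 0.0351), with a trended robust prior (0.0257) and with array weights (0.0367), in a range up to 0.339. With digoxin STAT3 stood 0.62 ± 0.056 above DMSO, and 0.57 on the other probe set.

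SOCS3, a STAT3 target and the pathway's feedback inhibitor, read 6.24, 6.03 and 6.20 with DMSO, 6.03, 6.07 and 6.02 with rotenone, 6.13, 6.23 and 5.99 with digoxin, and 5.92, 6.08 and 5.98 with manassantin. All groups overlapped with DMSO, also with digoxin, where IL6 and IL11 were over 9-fold higher. Its digoxin difference was -0.044 ± 0.073, which turned to 0.064 with quantile normalization and 0.043 with median centring, with 0.0056 and 0.22 on its other probe sets, both dim. Rotenone stood at -0.12 (limma adjusted p = 0.406) and manassantin at -0.16 (adjusted p = 0.305).

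**Figure D3:**
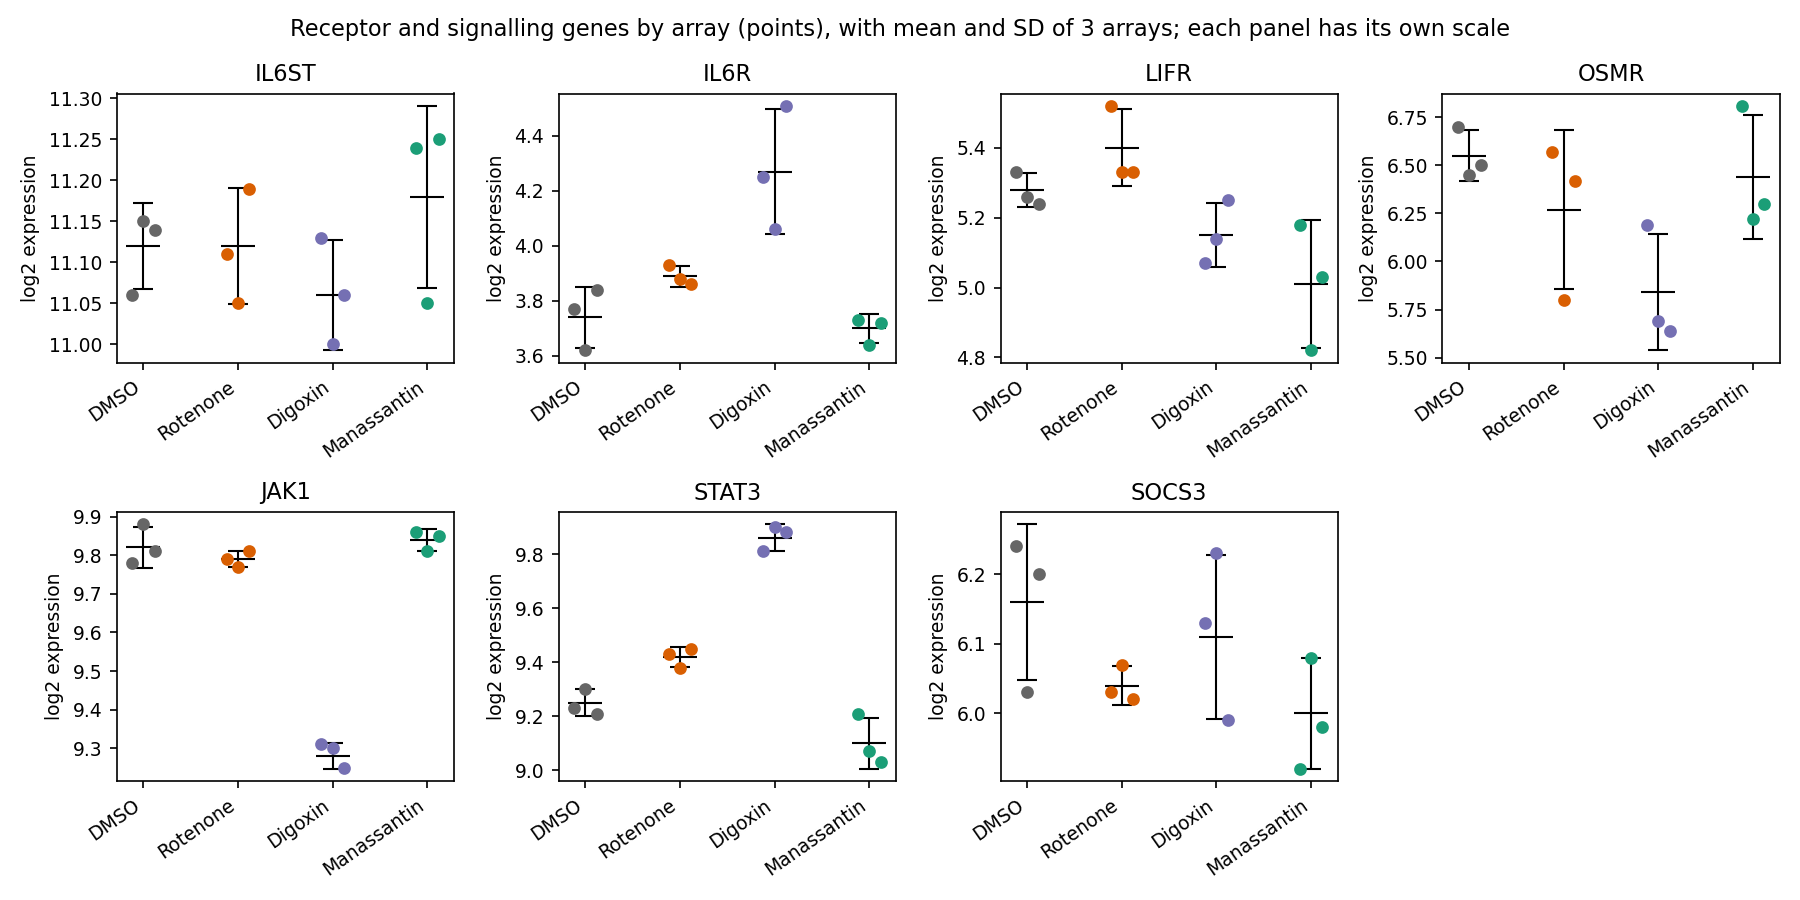
Log2 expression of the receptor and signalling genes on the 12 arrays (points) by group, with the mean and SD of 3 arrays; each panel has its own vertical scale. STAT3 is highest and JAK1 lowest on the digoxin arrays, and the SOCS3 groups overlap with DMSO.

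Counted over the set, limma called 2 of the 10 genes with rotenone against DMSO, IL6 and LIF, both higher, where 6.94% of all genes were called. With manassantin against DMSO it called 0 of 10, where 0.97% of all genes were called, and 4 reached an unadjusted p under 0.05 (LIF, LIFR, STAT3 and SOCS3). Other settings of limma called 0 or 1 of them. Manassantin against rotenone called 3 of 10, IL6, LIFR and STAT3, all lower with manassantin, where 8.47% of all genes were called. The comparisons with DMSO share its 3 arrays, also with the digoxin comparison that entered the choice of genes, whereas manassantin against rotenone shares none with it.

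For 7 of the 10 genes (5 higher and 2 lower) no digoxin array overlapped the DMSO arrays, as was true of 61.9% of all genes. Digoxin was also apart from rotenone for 7 (58.1% of all genes) and from manassantin for 7 (59.7%). Nothing is read from these shares, since digoxin entered the choice. Arrays were apart for 6 of 10 with rotenone against DMSO (31.2% of all genes), 2 with manassantin (22.4%) and 6 for manassantin against rotenone (29.2%). Some gaps behind these counts were very small, such as 0.00088 for LIFR with rotenone against DMSO and 0.00023 for LIF between manassantin and rotenone. The median log2 difference of the 10 genes from DMSO was 0.243 with digoxin, 0.134 with rotenone and -0.0174 with manassantin, against 0.0651, 0.0124 and 0.00689 over all genes. Nothing is read from the digoxin median either, since it rests on the arrays that entered the choice.

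**Figure D4:**
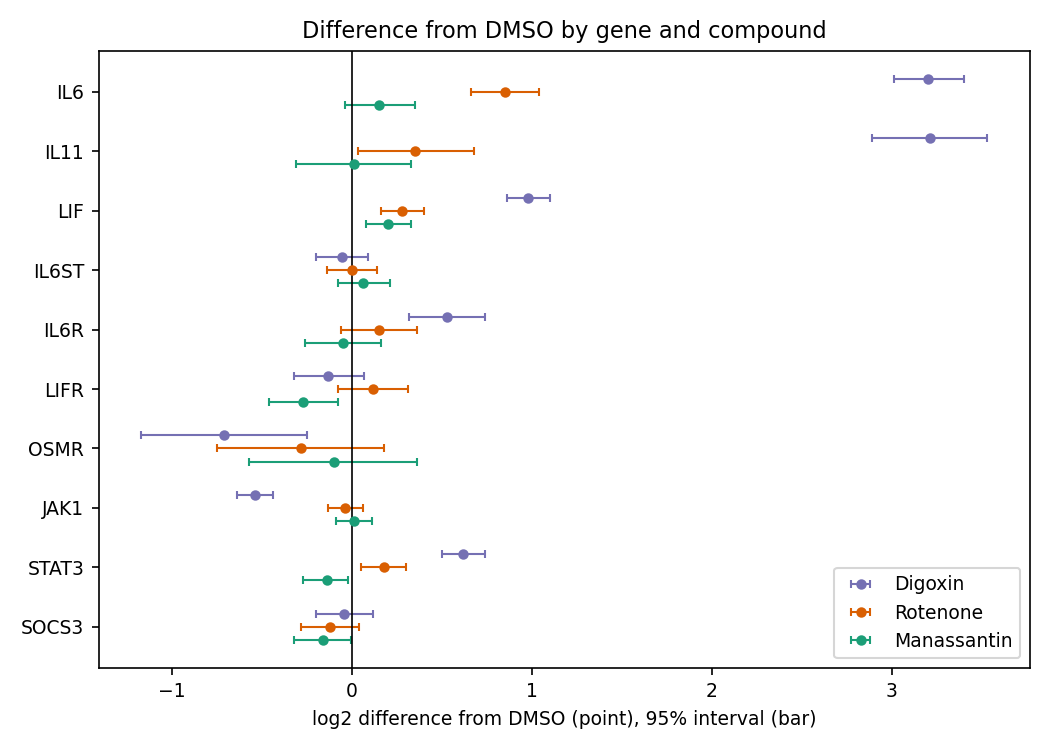
Log2 difference from DMSO (points) with the 95% interval from limma (bars) for the 10 genes and 3 compounds. IL6 and IL11 stand at 3.20 and 3.21 with digoxin, and IL6 at 0.85 with rotenone; all differences share the same 3 DMSO arrays.

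The rest of the pathway was read from lists of 87 further genes, of which 77 were measured. The lists were drawn up with earlier results of these data known, so their shares beside all genes are given as a description. With digoxin 46 of the 77 were called by limma, 26 higher and 20 lower, or 59.7%, where 54.8% of all genes were called. With rotenone 11 were called, all higher (14.3% against 6.94%). With manassantin 2 were called (2.6% against 0.97%), and for manassantin against rotenone 9, of which 8 were lower (11.7% against 8.47%). Leaving out any 1 array lowered the rotenone count to between 4 and 7 and the manassantin count to 0.

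Few other ligand and receptor genes were called, and most of them were dim. Of 4 further cytokine genes measured (OSM, CNTF, CTF1 and EBI3), 0 were called with any compound by limma, and 0 reached an unadjusted p under 0.05. Of all genes 54.8% were called with digoxin, 6.94% with rotenone and 0.97% with manassantin. OSM, CNTF and EBI3 were dim, so the lack of calls says little about a response. Of 3 further receptor genes 1 was called with digoxin (33.3% beside 54.8% of all genes) and 0 with rotenone or manassantin. CNTFR, which was not called, was dim. The called gene was IL11RA, the IL-11 binding chain, which was lower with digoxin at -0.28 (limma adjusted p = 0.0111, dim). That call was lost without DMSO replicate 3 (-0.22, adjusted p = 0.0517) and with median centring (-0.19, adjusted p = 0.0618). Of 2 sheddase genes, whose proteins release IL6R from the cell surface, 1 was called with digoxin (50% beside 54.8% of all genes). ADAM10 was lower at -0.20 (limma adjusted p = 0.00737), and ADAM17 stood at 0.019 (adjusted p = 0.744).

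Of 9 further kinase, STAT and adaptor genes, 1 was higher and 4 lower with digoxin (55.6% beside 54.8% of all genes) and 0 were called with rotenone or manassantin, where 2 and 3 reached an unadjusted p under 0.05. The adaptor gene GRB2 was higher by 0.34, and the kinase gene JAK2 (-0.47, dim), the exchange factor gene SOS1 (-0.58) and the phosphatase gene PTPN11 (-0.21) were lower, each past the limma threshold. The calls of PTPN11 and ADAM10 were lost with median centring (-0.12 and -0.11, adjusted p = 0.0869 and 0.0787) and with the mean of probe sets (-0.047 and -0.075, adjusted p = 0.544 and 0.379).

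Of 13 feedback inhibitors other than SOCS3, 2 were higher and 6 lower with digoxin (61.5% beside 54.8% of all genes). SOCS1, a JAK inhibitor, fell by 1.51 ± 0.096, from 5.89 to 4.38 (limma adjusted p = 7e-08), and SOCS6 fell by 1.22 ± 0.12 (adjusted p = 3.29e-06). Over all its probe sets SOCS1, which was dim, fell by 0.41. The phosphatase gene PTPN2 fell by 0.48, or by 0.20 over all its probe sets, while SOCS7 rose by 0.37, a call lost in 8 of 15 alternatives, among them each fit without 1 DMSO array (adjusted p up to 0.189 over all). SOCS5 rose with rotenone by 0.30 (adjusted p = 0.0183, up to 0.0991 over the alternatives, lost without any 1 DMSO array), and SOCS5 was lower with manassantin than with rotenone, at -0.37 (adjusted p = 0.00524), a call lost with the mean of probe sets (-0.20, adjusted p = 0.0663). SOCS1 went the other way, higher with manassantin than with rotenone by 0.36 (adjusted p = 0.0388, dim), a call lost in 7 of 15 alternatives (adjusted p up to 0.22).

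Of 17 measured STAT3 target genes other than SOCS3, 8 were higher and 4 lower with digoxin (70.6% beside 54.8%), 5 higher with rotenone (29.4% beside 6.94%) and 0 called with manassantin, where 8 reached an unadjusted p under 0.05. Several of these genes also answer to other signals. With digoxin CEBPD, a transcription factor gene of the acute phase, rose by 2.07 ± 0.068, from 8.38 to 10.45 (limma adjusted p = 4.89e-10). FOS rose by 1.97, JUNB by 1.14 and the adhesion gene ICAM1 by 0.98. With rotenone FOS and JUNB rose by 0.84 each, in every alternative. ICAM1 rose by 0.30 and the kinase gene PIM1 by 0.25, calls lost without DMSO replicate 2 (adjusted p = 0.139 and 0.0555) or rotenone replicate 2 (0.139 and 0.0546), and for ICAM1 in 7 of 16 alternatives in all (adjusted p up to 0.178). CEBPD stood at 0.066 with rotenone (limma adjusted p = 0.651) and at 0.048 with manassantin (adjusted p = 0.79). Manassantin against rotenone was lower for FOS (-1.10, dim), JUNB (-0.68), MYC (-0.32) and BIRC5 (-0.21). BIRC5 alone of these lost its call, in 5 of 16 alternatives (adjusted p up to 0.0953). Of 8 acute phase genes, which liver cells make under IL-6, HP and ORM1 were higher with digoxin by 0.27 each (25% of the list beside 54.8%). All 8 were dim, so the low share says little about a response. The HP call was lost without DMSO replicate 1 (adjusted p = 0.0585) and the ORM1 call without DMSO replicate 2 (adjusted p = 0.0508).

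Genes known to induce IL6, IL11 or LIF, which encode NF-kB and AP-1 subunits and interleukin-1 signals, formed the next list. With digoxin 10 of 13 were higher and 1 lower, 84.6% beside 54.8% of all genes, with a median of 0.475. As this list too was drawn up with earlier results known, that share is a description. FOSL2, an AP-1 subunit gene, rose by 1.86 ± 0.052 (limma adjusted p = 1.75e-10), RELB by 1.07 and REL by 0.97 (dim), while IL1R1, the interleukin-1 receptor gene, fell by 1.46 ± 0.098. Over all probe sets REL rose by 0.63, and IL1R1 fell by 0.63. The FOSL2 rise with digoxin ran from 1.42 to 1.94 over the alternatives. With rotenone 4 rose (30.8% beside 6.94% of all genes), FOSL2 by 0.64, FOSL1 by 0.35, RELB by 0.31 and RELA by 0.25. RELB lost its call in 9 of 16 alternatives (adjusted p up to 0.193) and RELA in 7 (up to 0.111). With manassantin 2 were called (15.4% beside 0.97% of all genes). FOSL2 rose by 0.30 (limma adjusted p = 0.0263) and NFKB1 fell by 0.32 (adjusted p = 0.0294), both calls being lost without any 1 of the 6 arrays. Over all its probe sets FOSL2 rose with manassantin by 0.14 (limma adjusted p = 0.257). NFKB1, FOSL2 and IL1A were lower with manassantin than with rotenone, at -0.36, -0.34 and -0.39. IL1A, which was dim, kept its call in 5 of 15 alternatives (adjusted p up to 0.251).

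Of 8 genes whose proteins bind cytokine mRNA and set its lifetime, 3 were higher and 3 lower with digoxin (75% beside 54.8%). ZFP36, a decay factor for AU-rich mRNA, rose by 0.76 ± 0.058, and ARID5A, which protects IL6 mRNA, rose by 0.42 (dim). HNRNPD fell by 0.53, or by 0.18 over all its probe sets, and ZFP36L2 by 0.30. ZFP36 rose with rotenone by 0.21 (limma adjusted p = 0.0457), a call lost in 9 of 16 alternatives (adjusted p up to 0.158).

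**Figure D5:**
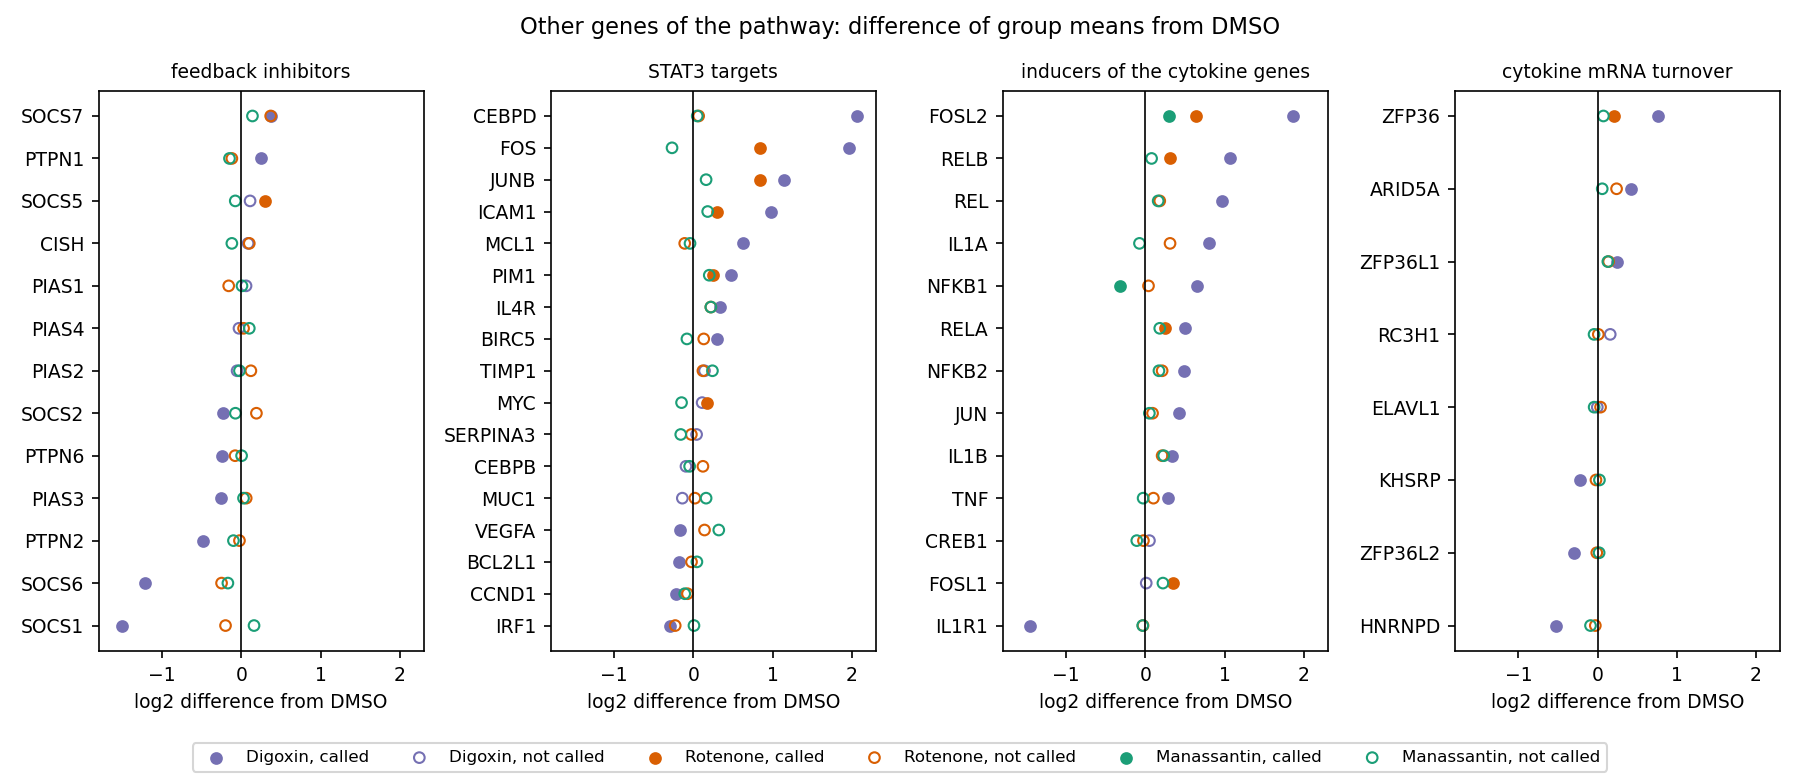
Log2 difference from DMSO for genes of 4 pathway lists outside the set, with filled points for genes called by limma (adjusted p under 0.05) and open points for the rest. CEBPD (2.07), FOS (1.97) and FOSL2 (1.86) lie farthest to the right and SOCS1 (-1.51) farthest to the left, all with digoxin.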

How the data were processed

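The deposited values are probe set summaries on a scale read as log2, already normalized by the authors. The log2 base was inferred from their range, 1.65 to 13.75, with array medians from 5.88 to 6.00. Neither labels nor headers name the background correction, summarisation or normalization. Of 22277 probe sets, 62 were controls, and a platform annotation gave 1 gene symbol for 19064, several for 1043 and none for 2108. Genes were named from the first kind only, giving 11963 genes. The 10 genes had 19 probe sets.

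Differences were fitted with limma 3.58.1 in R 4.3.3 (lmFit and eBayes) on all 12 arrays, with a term for group alone (residual degrees of freedom 8, prior 3.68). P-values were adjusted by Benjamini and Hochberg's method over all 11963 genes, or over all probe sets where stated, and genes under 0.05 are called. The number of arrays limits the precision.

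The members and lists were chosen with earlier results of these data known. Named genes were the 10 members, up to 4 called genes with the largest difference per list and comparison, and the 5 genes nearest to IL6 and to IL11. Other genes named only as unmoved, or beside a gene named by that rule, were chosen after their values were seen. Same-numbered arrays were compared by the correlation of their deviations from group means. For rotenone and manassantin all 3 pairs exceeded 0.1, so numbers may pair those arrays, although the labels do not say what a number marks. The main fit did not use this pairing, and the replicate block is given as an alternative. Digoxin and DMSO arrays of the same number had correlations of 0.158, 0.0795 and 0.142. Plots used matplotlib 3.10.9 under Python 3.11.15.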

Additional observations from a re-analysis of the deposited data

How the results depend on the processing

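The alternatives were array weights, a replicate block, quantile normalization, a trended robust prior, median centring, every probe set, no dim genes, a fit on the compared groups, the mean of probe sets, the 18S control as a covariate, and leaving out each array. IL6 kept its direction and call in all 16 for rotenone against DMSO (0.78 to 0.88) and for manassantin against rotenone (-0.80 to -0.60), as did STAT3 for the latter (-0.37 to -0.28). For digoxin against DMSO the difference ran from 3.15 to 3.29 for IL6 and from 3.06 to 3.30 for IL11, and the count of genes whose groups did not overlap ran from 6 to 8. The members called with rotenone (2) were 3 with the replicate block, without dim genes, with array weights and with a trended robust prior, 1 with the 18S covariate and 1 to 2 when arrays were left out. With manassantin 1 was called with dim genes left out.

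Other pathway genes called with rotenone (11) were 7 with every probe set, 17 with array weights, 6 with the 18S covariate and 4 to 7 with arrays left out. With manassantin (2) they were 4 with the replicate block, 9 without dim genes, 5 with array weights, 8 with a trended robust prior, 0 in the fit on these groups, 0 with the 18S covariate and 0 with any array left out. For manassantin against rotenone (9) they were 15 with a trended robust prior. Over all genes the calls went from 116 for manassantin to 291 with the replicate block, 278 with array weights, 491 without dim genes, 503 with a trended robust prior, 61 with every probe set, 76 with median centring, 4 in the fit on these groups, 3 with the 18S covariate and 7 to 25 with arrays left out. They went from 830 for rotenone to 1301 without dim genes, 1614 with array weights, 1312 with a trended robust prior, 339 with the 18S covariate and 346 to 500 with arrays left out. For manassantin against rotenone they went from 1013 to 1540 without dim genes, 1545 with a trended robust prior and 500 to 835 with arrays left out. The cause was not tested.

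The replicate block called IL11 with rotenone against DMSO (0.35, adjusted p = 0.0289 with limma, range 0.0289 to 0.483 over its alternatives). The numbers paired DMSO and rotenone arrays less clearly, with correlations of 0.118, 0.0339 and 0.185.

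Between manassantin and rotenone the block changed the call of IL11 and of no other of the 10 genes.

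With digoxin, where no member was tested, SOCS3 turned positive in 4 alternatives (0.018 to 0.064) and IL6ST in 2 (0.033 and 0.41). In the tested comparisons, differences that were not called changed sign in 20 cases. With the mean of probe sets IL6ST was -0.057 with rotenone and -0.15 with manassantin, and -0.10 between them, and SOCS3 was 0.0039 and 0.0021. With array weights IL6ST was -0.0058 with rotenone, IL11 -0.0062 and JAK1 -0.0022 with manassantin. With quantile normalization IL11 was -0.008, and with the 18S covariate IL6R was 0.0023, both with manassantin. Leaving out arrays gave ranges that crossed 0: IL6ST from -0.037 to 0.034 with rotenone, IL11 from -0.14 to 0.16, OSMR from -0.29 to 0.0063, JAK1 from -0.0078 to 0.043 and IL6R from -0.11 to 0.0014 with manassantin, and OSMR from -0.054 to 0.33 for manassantin against rotenone. The cause was not tested.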
